A study of Mus musculus with 8 samples.

Results

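Most mRNAs end in a poly(A) tail, but those of the replication-dependent histones end in a short stem-loop. A group of 9 genes that make and remove this class of mRNA was examined in S0 cells: Slbp, Npat, Casp8ap2, Lsm10, Lsm11, Cpsf2, Cpsf3, Cstf2 and Eri1. They were chosen by name, as factors of histone locus transcription, histone 3′ end processing and histone mRNA decay, from the 52636 genes of the deposited count table, and all 9 of 9 passed the filter on low counts. S0 cells are the lineage-negative cells of the fetal liver that carry neither CD71 nor Ter119 on their surface, and are the least mature erythroid stage that the sort separated.

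RNAseq libraries were made from S0 cells of E12.5 embryos, 4 of the WT genotype and 4 of the Vps13a/Vps13c double knockout (DKO) genotype, all kept on a C57BL/6J background. DKO embryos were bred to lack both genes in every cell from the start of development, the Vps13a allele having been made by β-actin-Cre removal of an exon, and came from matings of Vps13a+/-/Vps13c-/- parents. Such matings give only embryos that lack Vps13c, so that WT embryos belong to other litters and litter and genotype cannot be told apart. The labels do not state that each library is 1 embryo. If libraries share an embryo or a pool, the p-values below measure only the spread between these libraries.

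During S phase, the histone genes are transcribed in nuclear histone locus bodies, which NPAT and the FLASH protein (Casp8ap2) organise. The stem-loop binding protein SLBP holds the stem-loop, the U7 snRNP, whose ring carries LSM10 and LSM11, pairs with a site downstream, and a cleavage complex with CPSF2, the endonuclease CPSF3, symplekin and CSTF2 (CstF-64) cuts the transcript. The exonuclease ERI1 trims and later helps degrade the cut mRNA. Histone transcripts that escape this cleavage can be polyadenylated instead, and the libraries were made from polyA RNA.

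The stem-loop that SLBP binds is shown for the histone gene of each type that had the highest mean count in WT among those with a match. Each line gives the stem in capitals with the loop between and 5 flanking bases on either side, 5′ to 3′ on the strand of the mRNA, from the GENCODE transcripts of GRCm38.
Hist1h1c: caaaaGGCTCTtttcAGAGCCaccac
Hist1h2ag: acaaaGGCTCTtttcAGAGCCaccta
Hist1h2bj: ccaaaGGCTCTtttcAGAGCCacgca
Hist1h3d: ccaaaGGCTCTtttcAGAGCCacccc
Hist1h4i: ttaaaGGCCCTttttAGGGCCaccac
All of these windows lie in the 3′ UTR, on chromosome 13 of GRCm38, with Hist1h1c at chr13:23739507-23739532 on the plus strand, Hist1h2ag at chr13:22042478-22042503 on the minus strand, Hist1h2bj at chr13:22043633-22043658 on the plus strand, Hist1h3d at chr13:23576239-23576264 on the plus strand and Hist1h4i at chr13:22040961-22040986 on the minus strand. The stem begins between bases 25 and 37 after the stop codon in the 5 genes. The search took a stem of GG, 3 pyrimidines and T with its complement, around a loop of T, a pyrimidine, T and any base, on the mRNA strand alone and in the first 100 bases of the annotated 3′ UTR. Of the 52 replication-dependent histone genes with an annotated 3′ UTR of at least 16 bases, 46 had a match, or 88.5%, and the sequence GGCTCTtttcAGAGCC stood in 26 of them. Among 20912 other protein-coding genes the share was 0.00956%, from 2 genes, H2afx and H2bfm. None of the 9 factors had a match in the same window of its own 3′ UTR.

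The U7 snRNA, whose Sm site LSM10 and LSM11 hold, is 62 bases long in the mouse (Rnu7, chr6:124741225-124741286 of GRCm38, minus strand). Its sequence is given with the Sm site (bases 21 to 31) in capitals.
Rnu7: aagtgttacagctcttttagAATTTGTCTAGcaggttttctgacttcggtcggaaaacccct
Rnu7 was listed at exactly 1 raw count in each of the 8 libraries. The same value in every library was found for 242 genes of the table, of which 230 are shorter than 150 bases, so that the level of U7 could not be read from these data.

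The libraries held 36981439 to 50886469 counts. In WT the targeted Vps13a had 1825 to 2109 normalized counts, and in DKO 607 to 1039 (log2 fold change -1.29, edgeR adjusted p = 0.00247), whereas Vps13c, counted over the whole gene, differed by 0.49 (edgeR adjusted p = 0.182), which did not check the labels. The erythroid marker Klf1 had 9622 to 17171 normalized counts over all 8 libraries. Summed hepatoblast markers were also high, at 522147 to 720998 normalized counts in WT and 173749 to 630383 in DKO. The 7 mesenchyme markers summed to 2016 to 5677 in WT and 12714 to 43788 in DKO, 6 of them passing the test as higher, and the 8 early progenitor markers summed to 121131 to 160460 in WT and 19501 to 55111 in DKO, 5 of them lower. In WT most of the early progenitor sum was Mpo, with a mean of 108147 in WT and 22998 in DKO. Hepatoblast, endothelial, megakaryocyte and erythroid sums overlapped between the genotypes, summed macrophage markers (Cd163 at 0) ran from 4864 to 7355 in WT and from 1369 to 4383 in DKO, summed neutrophil markers from 9828 to 12268 in WT and from 1483 to 8523 in DKO, and summed neural markers from 155 to 281 in WT and from 258 to 2386 in DKO. By gene, 2 of 13 erythroid markers were called higher, and 0 of 4 neural markers were called. Those called lower were 0 of 10 hepatoblast, 1 of 8 macrophage, 1 of 8 endothelial, 1 of 6 megakaryocyte and 2 of 6 neutrophil markers. All marker counts of this paragraph stand beside 10.8% of all genes called lower and 10.7% higher. The fitted difference was negative for 9 hepatoblast markers and positive for 1, with a median log2 fold change of -0.66. It was negative for 47.4% of all genes. In a bulk sample, fewer cells of a type and less RNA per cell cannot be told apart, and the part of these markers in the results below was not tested. The libraries also differed in sex. Xist stood at 0 to 30.1 normalized counts in WT and at 62.3 in DKO replicate 3, against 18029 to 27043 in the other DKO libraries, and the Y-linked Ddx3y was at 2911 to 3354 in WT, at 2516 in DKO replicate 3 and at no more than 41.0 in those others. DKO replicate 3 is therefore the DKO library with the sex-linked transcripts of the WT libraries, and results that rest on it are given with and without it.

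Differences between WT and DKO were tested with edgeR's quasi-likelihood test over all 17378 genes that passed the filter, with Benjamini-Hochberg adjustment over all of them. For normalized counts, each count was divided by the TMM-scaled library size and set to the mean of those sizes. A gene was called at an adjusted p under 0.05. Exact permutation tests between 4 and 4 libraries, two-sided, cannot give a p below 0.0286.

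Of the 9 factors, 2 were called lower in DKO, 0 were called higher and 7 did not pass. Cstf2 fell by 33.4% and Cpsf3 fell by 28.2%, both subunits of the cleavage complex. Over all genes tested, 10.8% were called lower and 10.7% higher. Neither factor reached a log2 fold change below -1, the threshold of the study, which together with the adjusted p was met by 2.43% of all genes, and 6.19% met it above 1. The fitted difference was negative for 8 of the 9, with a median log2 fold change of -0.28, whereas it was negative for 47.4% of all genes, with a median of 0.03. At an unadjusted p under 0.05, 7 of the 9 were lower, against 17.8% of all genes, and 0 were higher, against 18.4%. With upper-quartile scaling the median of all genes moved to 0.14 and the share of higher genes among all calls from 49.9% to 66.7%, while Cpsf3 (-0.37) and Cstf2 (-0.48) were again the 2 factors called.

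**Figure D1:**
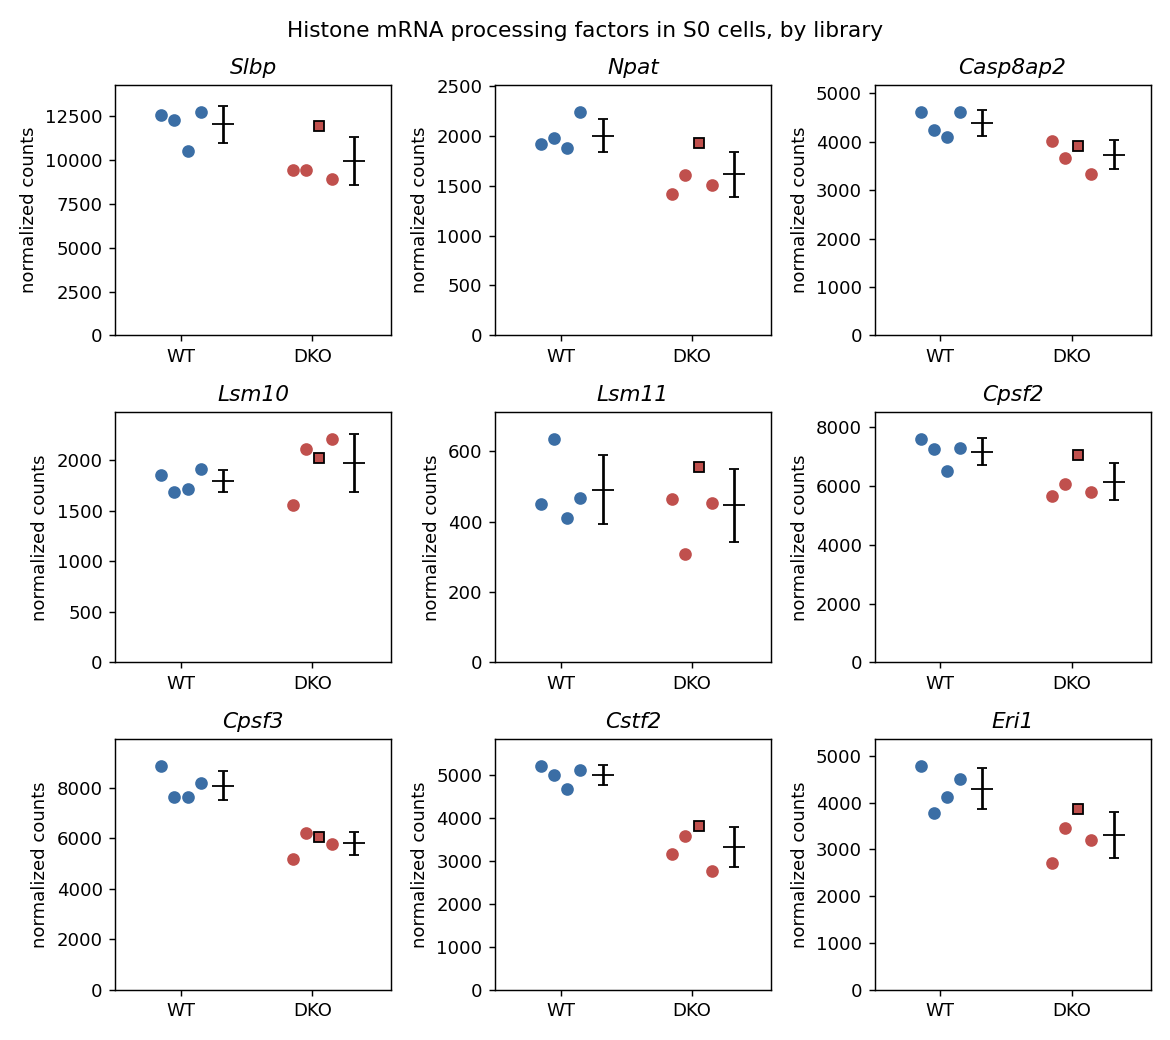
Normalized counts (vertical axes, starting at 0) of the 9 factors in each WT (blue) and DKO (red) library, with the mean and SD of each group in black and DKO replicate 3 as a square with a black edge. The groups are apart for Casp8ap2, Cpsf3 and Cstf2, and the square lies inside or close to the WT range for Slbp, Npat, Cpsf2 and Eri1.

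Cpsf3 (ENSMUSG00000054309.9, plus strand of chromosome 12 from 21285391 to 21315056) encodes CPSF73, the endonuclease that cuts histone pre-mRNA as well as pre-mRNA that will be polyadenylated. It had 8856, 7639, 7628 and 8195 normalized counts in WT replicates 1 to 4 and 5159, 6206, 6067 and 5757 in DKO replicates 1 to 4. The highest DKO library was below the lowest WT library. The means were 8080 ± 582 and 5797 ± 465 (SD, n = 4 each), and the fitted log2 fold change was -0.48 with a standard error of 0.09. This passed edgeR's test (adjusted p = 0.00672), and the exact permutation p was 0.0286.

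Cstf2 (ENSMUSG00000031256.11, plus strand of chromosome X from 134059187 to 134086819) encodes CstF-64, which binds RNA in polyadenylation and is also found in the histone cleavage complex. WT replicates 1 to 4 had 5205, 5007, 4666 and 5103 normalized counts, and DKO replicates 1 to 4 had 3161, 3578, 3810 and 2751. The groups did not overlap. The means of 4995 ± 234 and 3325 ± 468 (SD, n = 4 each) corresponded to a fitted log2 fold change of -0.59, with a standard error of 0.11 (edgeR adjusted p = 0.00682 and exact permutation p = 0.0286). Cstf2 is X-linked, and the 3 DKO libraries with Xist had 2751 to 3578, while DKO replicate 3, without it, had 3810.

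Sex was also entered in the fit, as a covariate for the 3 libraries with Xist, so that the genotype term rests on DKO replicate 3 against WT. The log2 fold change of Cpsf3 was then -0.41 (edgeR adjusted p = 0.121) and that of Cstf2 -0.39 (edgeR adjusted p = 0.166), and 0 factors were called. With this covariate 618 genes, or 3.56%, were called lower and 476 higher in all, in place of 1878 and 1867. With a single DKO library that lacks Xist, sex and genotype cannot be told apart further.

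Cpsf2 (ENSMUSG00000041781.9, plus strand of chromosome 12 from 101975988 to 102006424) encodes CPSF100, the inactive partner of CPSF73. It had 7582, 7257, 6508 and 7261 normalized counts in the WT libraries, set against 5659, 6040, 7035 and 5794 in the DKO libraries. DKO replicate 3 lay inside the WT range and the other DKO libraries below it. The 95% interval of its log2 fold change ran from -0.42 to -0.02 around -0.22. It did not pass after adjustment (edgeR, adjusted p = 0.109, and exact permutation p = 0.0571).

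Slbp (ENSMUSG00000004642.13, minus strand of chromosome 5 from 33634952 to 33652574) encodes the stem-loop binding protein, which stays with the histone mRNA from cleavage to translation. WT replicates 1 to 4 had 12586, 12290, 10509 and 12757 normalized counts, and DKO replicates 1 to 4 had 9426, 9407, 11945 and 8918. DKO replicate 3 was above WT replicate 3, and the other DKO libraries were below every WT library. The means were 12036 ± 1036 and 9924 ± 1368 (SD, n = 4 each), and the fitted difference on the log2 scale was -0.28 with a 95% interval from -0.52 to -0.03. Slbp did not pass the test (edgeR, adjusted p = 0.0971, and exact permutation p = 0.0571).

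Npat (ENSMUSG00000033054.7, plus strand of chromosome 9 from 53537047 to 53574342) encodes the coactivator of histone gene transcription that cyclin E and CDK2 phosphorylate. It had 1915, 1976, 1878 and 2242 normalized counts in the WT libraries and 1414, 1604, 1931 and 1512 in the DKO libraries. Again DKO replicate 3 alone reached the WT range. Its log2 fold change of -0.31, with a 95% interval from -0.57 to -0.05, did not pass (edgeR adjusted p = 0.0872, exact permutation p = 0.0857). Its start site lies 307 bp from that of Atm, a DNA damage kinase gene that is transcribed the other way, with no shared exon. Atm ranged from 1138 to 1262 normalized counts in WT libraries and from 775 to 1059 in DKO libraries, without overlap, and was called lower (log2 fold change -0.46 with a standard error of 0.13, edgeR adjusted p = 0.0307).

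Casp8ap2 (ENSMUSG00000028282.12, plus strand of chromosome 4 from 32615451 to 32653265) encodes FLASH, which joins the U7 snRNP to the cleavage complex. It had 4617, 4232, 4101 and 4619 normalized counts in the WT libraries and 4016, 3670, 3912 and 3331 in the DKO libraries. The highest DKO value, that of replicate 1, was under the lowest WT value. The fitted difference was -0.23 on the log2 scale, with a standard error of 0.09 and an exact permutation p of 0.0286, and the edgeR adjusted p of 0.0793 did not pass. Without DKO replicate 1 it was -0.27 and passed (edgeR adjusted p = 0.0453). Casp8ap2, Cpsf3 and Cstf2 were the 3 factors whose groups did not overlap, all with DKO below WT, a pattern met by 14.6% of all genes tested.

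Lsm10 (ENSMUSG00000050188.8, plus strand of chromosome 4 from 126096623 to 126098584) was the factor with a positive difference. It had 1858, 1691, 1715 and 1919 normalized counts in the WT libraries and 1560, 2112, 2025 and 2213 in the DKO libraries. DKO replicate 1 was the lowest of all 8 libraries and the other DKO libraries were above every WT library. The 95% interval of its log2 fold change, 0.14, ran from -0.13 to 0.41 (edgeR adjusted p = 0.441). Lsm11 (ENSMUSG00000044847.13, minus strand of chromosome 11 from 45928269 to 45944935), the other U7-specific ring protein, had 449, 635, 412 and 468 normalized counts in the WT libraries and 465, 308, 557 and 455 in the DKO libraries. The highest library was WT and the lowest DKO, with the rest mixed. Its log2 fold change of -0.14 (edgeR adjusted p = 0.702) had the widest interval of the 9, from -0.64 to 0.36, and its value without WT replicate 2 was 0.014.

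Eri1 (ENSMUSG00000031527.7, minus strand of chromosome 8 from 35465253 to 35496196) encodes the 3′ to 5′ exonuclease that binds the stem-loop together with SLBP. WT replicates 1 to 4 had 4778, 3772, 4116 and 4508 normalized counts, and DKO replicates 1 to 4 had 2701, 3460, 3863 and 3198. The groups overlapped only through DKO replicate 3, which was above WT replicate 2. Its log2 fold change of -0.38, with a 95% interval from -0.65 to -0.11, had an exact permutation p of 0.0571 and an edgeR adjusted p of 0.0527, just over the threshold. With DESeq2, which called 12.6% of the genes it tested lower, it passed (adjusted p = 0.0209).

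DKO replicate 3 stood apart from the other DKO libraries across the group. In DKO replicates 1, 2 and 4, 8, 8 and 7 of the 9 factors lay below the WT range, and in DKO replicate 3 it was 3 of 9 (Casp8ap2, Cpsf3 and Cstf2). Without DKO replicate 3, 6 factors were called lower, and so were 1995 of the 18004 genes tested in that fit, or 11.1%. The added ones were Slbp (log2 fold change -0.37, edgeR adjusted p = 0.0190), Npat (-0.40, edgeR adjusted p = 0.0249), Cpsf2 (-0.29, edgeR adjusted p = 0.0341) and Eri1 (-0.46, edgeR adjusted p = 0.0265). With the sex covariate, which rests on that library alone, these 4 factors lay nearer to 0, at log2 fold changes of -0.01 for Slbp, -0.05 for Npat, -0.02 for Cpsf2 and -0.15 for Eri1 (edgeR adjusted p = 0.971, 0.870, 0.925 and 0.638). That library also had the lowest summed hepatoblast markers of all 8, 173749 normalized counts, and the most DNA replication transcripts of the DKO libraries. Sex and marker levels differ together in this 1 library and cannot be told apart.

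**Figure D2:**
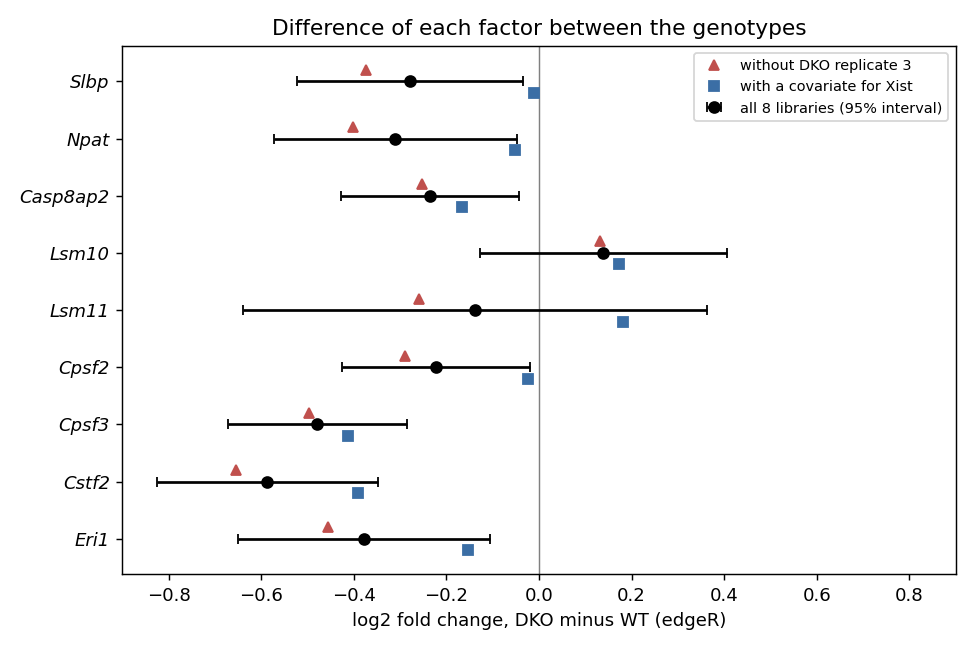
The log2 fold change (DKO minus WT, horizontal axis) of each factor with its 95% interval in the fit of all 8 libraries (black), without DKO replicate 3 (red triangles) and with a covariate for libraries with Xist (blue squares). Without DKO replicate 3 Slbp moves from -0.28 to -0.37, and with the covariate to -0.01, while Cpsf3 stays between -0.50 and -0.41.

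Around the mean of their own genotype, the libraries moved several factors together. Over the 8 libraries, the deviations of log2 CPM of Slbp and Cpsf2 had a Pearson correlation of 0.95, those of Cpsf3 and Eri1 0.91, those of Slbp and Npat 0.81 and those of Slbp and Lsm10 0.14. Negative values were found for Casp8ap2 and Lsm10 (-0.38), Cpsf3 and Lsm11 (-0.33), Lsm10 and Lsm11 (-0.26) and Eri1 and Lsm11 (-0.18). These correlations are descriptions over 8 points that share depth, cell mixture and sex. The genes whose log2 CPM followed Cpsf3 most closely over the 8 libraries were Eftud2 (Pearson r 0.994), Mbd1 (0.992) and Casp8 (0.992), those closest to Cstf2 were Dr1 (0.996), Men1 (0.993) and Xpc (0.992), and those closest to Eri1 were Hspa2 (0.985), Ica1 (0.985) and Nup133 (0.979). Since the genotypes lie apart, these values include the difference between the groups. Around the genotype means the same genes had r from 0.944 to 0.978, though they were picked by the values above.

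Levels of different genes were compared per kilobase of annotated exon. On this scale Slbp was highest in WT, at 1981 ± 170 normalized counts per kb (SD, n = 4), followed by Lsm10 at 1904 ± 117, and their ranges overlapped. Cpsf3 (1531 ± 110) and Cpsf2 (1248 ± 79.5) came next, each apart from its neighbours in order. Casp8ap2 (643 ± 39.0) was above Cstf2 (544 ± 25.5), whose range overlapped that of Eri1 (484 ± 49.8). Npat (321 ± 26.3) and Lsm11 (76.1 ± 15.3) were the lowest. In DKO, Lsm10 was at 2097 ± 306 and Slbp at 1633 ± 225 per kb, and Cpsf3 (1098 ± 88.1) and Cpsf2 (1070 ± 109) stood at a like level. Exons of all annotated isoforms were joined, which lowers the value of genes with long rare isoforms.

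Exons on the opposite strand could add reads, because the sources used here do not state whether the counting used strand. The overlap was 147 bp between Cpsf2 and Ndufb1-ps, which rose in DKO (log2 fold change 0.45, edgeR adjusted p = 0.00805), and 196 bp between Cpsf3 and Itgb1bp1 (log2 fold change 0.03, edgeR adjusted p = 0.890). Cstf2 shares 399 bp with Nox1, which had at most 20.8 normalized counts in a library, and holds the same-strand miRNA gene Mir3112, which was listed at 1 raw count everywhere. Slbp shares 474 bp with Gm10459, which had at most 10.5. The nearest start sites were 61 bp apart for Cpsf2 and Ndufb1-ps, 74 bp for Cpsf3 and Itgb1bp1 and 195 bp for Slbp and Gm10459. Npat, Casp8ap2, Lsm10, Lsm11 and Eri1 had no exon overlap with another gene.

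The histone transcripts themselves went the other way. Counts of 67 replication-dependent histone genes summed to 21024, 22485, 23223 and 22718 normalized counts in WT replicates 1 to 4 and to 47134, 45541, 52481 and 49980 in DKO replicates 1 to 4. The sums were 22362 ± 944 and 48784 ± 3073 (SD, n = 4 each), a 2.18-fold difference (exact permutation p = 0.0286). On the log2 scale the difference was 1.09 to 1.23 under other scalings, with each library left out and with histones of at least 10 counts everywhere. The sum was not fitted with the sex covariate, the replicate block, the DESeq2 test or the other gene filters. Of the 60 histone genes tested, 44 were called higher and 0 lower, against 10.7% and 10.8% of all genes. Per normalized count of Slbp the sum was 1.67 to 2.21 in WT and 4.39 to 5.60 in DKO, without overlap. Within DKO, replicate 3 had both the most Slbp and the most histone counts. Of the histones whose stem-loops are shown, Hist1h3d rose by 1.85 on the log2 scale (edgeR adjusted p = 0.00115), Hist1h2bj by 1.62 (edgeR adjusted p = 0.00132), Hist1h2ag by 0.83 (edgeR adjusted p = 0.00136) and Hist1h4i by 0.49 (edgeR adjusted p = 0.0293), while the difference of 0.42 for Hist1h1c did not pass (edgeR adjusted p = 0.0816). Hist1h2bj is not the most abundant H2B gene. Hist1h2bc and Hist2h2be had higher WT means, 2022 and 319 against 206. Neither passed (log2 fold changes 0.35 and 0.45, edgeR adjusted p = 0.152 and 0.129). Counts per gene do not tell a cleaved from a polyadenylated 3′ end, so whether these counts are of polyadenylated histone mRNA, and whether the factors have a part in them, was not tested. The study excluded alignments of low quality score, so reads that fit near-identical histone copies equally well can be missing from these counts.

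**Figure D3:**
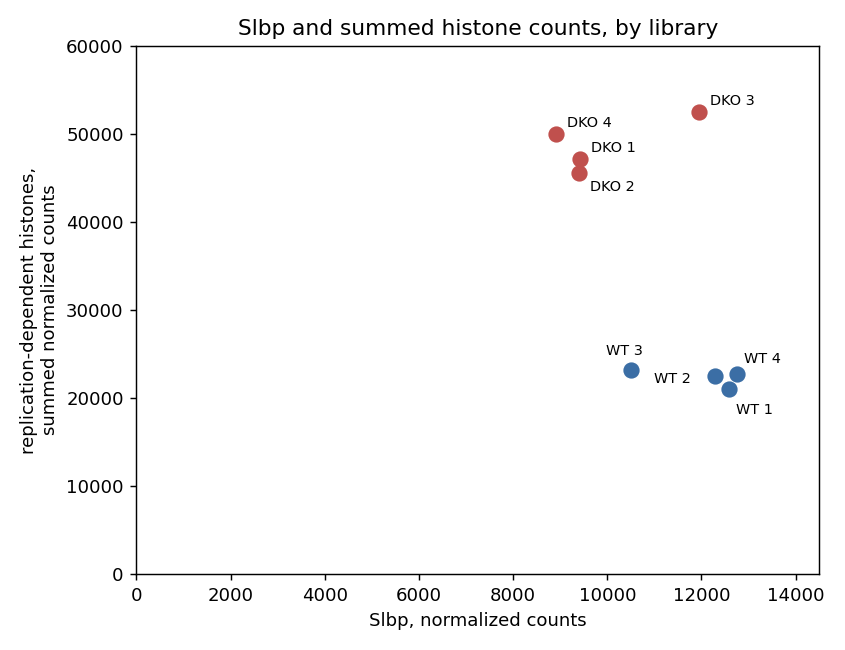
Summed normalized counts of the replication-dependent histone genes (vertical axis) against normalized counts of Slbp (horizontal axis) in each library, WT in blue and DKO in red, both axes from 0. The DKO libraries lie between 45541 and 52481 on the vertical axis and the WT libraries between 21024 and 23223, while on the horizontal axis DKO replicate 3 lies among the WT libraries.

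Other genes of the pathway were read from lists written from general knowledge. Of 23 other factors of the histone locus and of pre-mRNA processing, 5 were called lower, 2 higher and 16 did not pass, with a median log2 fold change of -0.14. These counts and those of the lists that follow stand beside 10.8% of all genes called lower and 10.7% higher. Sympk, which encodes symplekin, the scaffold that holds CPSF2 and CPSF3, rose from 828 ± 20.4 to 1353 ± 51.6 normalized counts (SD, n = 4 each, log2 fold change 0.71, edgeR adjusted p = 0.00271), opposite in direction to Cpsf3 and Cstf2. Snrpf, an Sm ring protein that U7 shares with the spliceosomal snRNPs, rose too (0.36, edgeR adjusted p = 0.0245). Cdk2, the kinase of NPAT, fell from 6868 ± 1110 to 4600 ± 636 (log2 fold change -0.58, edgeR adjusted p = 0.0195), and the NELF subunits Nelfcd (-0.43, edgeR adjusted p = 0.00788) and Nelfa (-0.33, edgeR adjusted p = 0.0296) were lower. The count of lower genes in this list was 1 to 3 when WT replicate 1, 2 or 4 or DKO replicate 2 or 4 was left out, and 0 with the sex covariate, and that of higher genes was 1 when any of WT replicates 1, 2 and 4 or DKO replicates 2 and 3 was left out.

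Of 22 factors of histone mRNA translation and decay, 3 were called lower, 2 higher and 17 did not pass, with a median of 0.01, so that both counts were near the shares over all genes. Lsm7 (log2 fold change 0.69, edgeR adjusted p = 0.00219) and Lsm4 (0.46, edgeR adjusted p = 0.00560), subunits of the ring that binds mRNA ends in decay, were higher in every DKO library. Its other subunits, Lsm1 (0.12), Lsm2 (-0.04), Lsm3 (0.14), Lsm5 (0.22) and Lsm6 (-0.03), were not called. Patl1, which joins that ring to decapping, averaged 2128 ± 245 in WT libraries and 1220 ± 156 in DKO libraries (SD, n = 4 each), and fell by 0.80 on the log2 scale (edgeR adjusted p = 0.00440). Exosc10 of the nuclear exosome (-0.35, edgeR adjusted p = 0.0168) and Mif4gd, the SLBP partner in histone mRNA translation (-0.36, edgeR adjusted p = 0.0407), were also lower. Without WT replicate 1 the count of lower genes was 1, and with the sex covariate it was 0. Upf1, needed for histone mRNA decay, and the uridylyltransferase gene Tut7 did not pass (log2 fold changes 0.06 and -0.06, edgeR adjusted p = 0.747 and 0.645).

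The general cleavage and polyadenylation machinery had 7 genes called lower, 3 higher and 8 not called among 18, with a median of -0.25. Cstf2t, the autosomal paralog of Cstf2, went from a WT mean of 2963 ± 399 to a DKO mean of 1843 ± 155 normalized counts (SD, n = 4 each) and fell by 0.68 on the log2 scale (edgeR adjusted p = 0.00531). The poly(A) polymerase gene Papola (-0.37, edgeR adjusted p = 0.0101) and Cpsf1, which encodes the largest subunit of CPSF (-0.41, edgeR adjusted p = 0.0159), were lower. The nuclear poly(A) binding protein gene Pabpn1 rose from 3277 ± 409 to 5092 ± 397 (log2 fold change 0.64, edgeR adjusted p = 0.00500), with Pcf11 (0.38, edgeR adjusted p = 0.0224) and Rbbp6 (0.33, edgeR adjusted p = 0.0226). Leaving out any 1 WT library or DKO replicate 4 gave 3 or 4 lower genes, upper-quartile scaling gave 3, and with the sex covariate 0 were called in either direction. The higher count was 1 when any of WT replicates 1, 2 and 4 or DKO replicate 4 was left out.

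Of 32 DNA replication genes, which like the histones are expressed with S phase, 14 were called lower, 0 higher and 18 did not pass, with a median of -0.27. Mcm4 (log2 fold change -0.71, edgeR adjusted p = 0.00263), Mcm6 (-0.65, edgeR adjusted p = 0.00308) and Rrm1 (-0.66, edgeR adjusted p = 0.00325) had the smallest p among them. The list summed to 265982 to 288224 normalized counts in WT and to 187343, 219103, 243907 and 206909 in DKO replicates 1 to 4, with DKO replicate 3 the highest of the DKO libraries, as for Slbp. The count of lower genes was 5 to 9 when 1 of WT replicates 1, 2 and 4 or of DKO replicates 2 and 4 was left out, and 0 with the sex covariate.

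**Figure D4:**
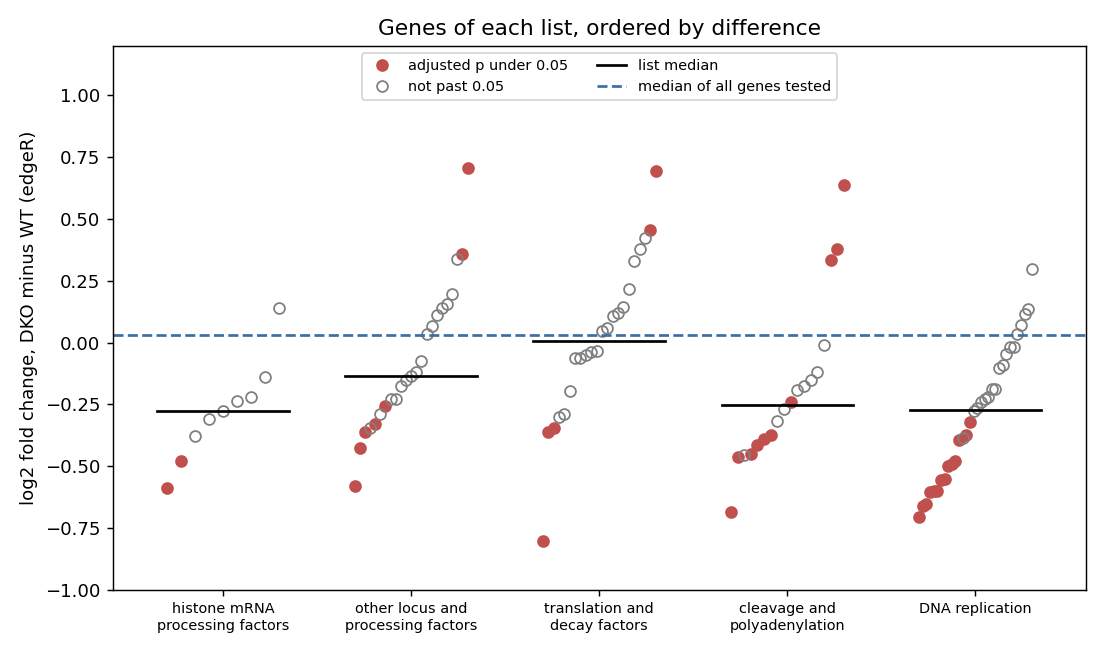
The log2 fold change (DKO minus WT, vertical axis) of each gene in the 9 factors and in 4 lists, ordered within each list, with filled red points for an adjusted p under 0.05, open grey points for the others, a black line at each list median and a dashed line at 0.03, the median of all genes tested. The medians of the 9 factors (-0.28), the cleavage and polyadenylation list (-0.25) and the DNA replication list (-0.27) lie close to each other.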

How the data were processed

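Per the labels and the methods of the study, reads were trimmed with fastp 0.21.0, mapped to mm10 with HISAT2 2.2.1, filtered for alignment quality, and counted per gene with StringTie 1.3.3b and its prepDE script. The authors deposited these counts as whole numbers, neither normalized nor pooled. prepDE works back from coverage, so that totals can differ from the reads. Columns were matched to the labels by library name. Of 52636 gene identifiers, 52403 matched a symbol in GENCODE vM21 (GRCm38, the same build as mm10) when the version was ignored.

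Tests were run in R 4.3.3, using edgeR 4.0.16 (filterByExpr, TMM, robust quasi-likelihood test, Benjamini-Hochberg adjustment over 17378 genes, no covariate). Permutation tests over 70 arrangements used log2 of CPM plus 0.5 for single genes and log2 of the summed normalized counts for the histones. At totals of 36981439 or more, the spread between libraries and not counting limited precision. No library was a copy of another of the same genotype (chi-square per gene of at least 18.3), and pairs across genotypes were not compared. Alternatives were DESeq2 1.42.0, other scalings and filters, a replicate block, a sex covariate and each library left out. Steps were tested on simulated data.

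The factors and lists were chosen with earlier results of these data known, so the lists are no independent evidence. Named in each list were up to 3 called genes per direction, by smallest p, genes sharing a start region within 1000 bp with a factor, and the genes most correlated with the 3 factors of smallest p. Upf1, Tut7, H2afz, H3f3b, Klf1, the overlapping genes Nox1 and Mir3112 and the histones beside their sequences were named after their values were seen. Hist1h2bc, Hist2h2be, Mpo, Lsm1, Lsm2, Lsm3, Lsm5 and Lsm6 were too. Experiments other than the RNAseq were not analysed here.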

Additional observations from a re-analysis of the deposited data

Results flagged for a closer look

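Slbp in DKO replicate 3 had 11945 normalized counts, far from 8918 to 9426 in the other DKO libraries. The gap to the nearest of them was 0.832 of the range of the group, over the critical value of 0.829 for 4 samples. Chance alone gives such a gap in about 1 in 20 groups, and 20 groups were examined, the WT and DKO libraries of the 9 factors and of the summed histones.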

How the results depend on the processing

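Cpsf3 and Cstf2 passed the threshold under every alternative except the sex covariate, where they were at -0.41 and -0.39 (log2). With that covariate 0 factors were called, Lsm11 turned to 0.18, 476 genes were higher and 618 lower in all, and the other histone locus and pre-mRNA processing factors gave 1 higher and 0 lower, translation and decay 0 lower, cleavage and polyadenylation 0 in each direction, and DNA replication 0 lower. DESeq2 called 4 factors lower, adding Casp8ap2 (-0.24) and Eri1 (-0.39), and called more genes in all, 2642 lower and 2751 higher. Eri1 also passed without TMM (-0.38) and with a minimum of 10 counts in every library (-0.36). Upper-quartile scaling gave 1242 lower genes in all and, among lower genes of the lists, 2 of the histone locus, 3 of cleavage and polyadenylation and 9 of DNA replication. The histone locus list had 1 higher gene without the low-count filter and 3 lower among protein-coding genes without histones. The cause of these shifts was not tested.

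With the replicate block, Cpsf3 was at -0.48 (edgeR adjusted p = 0.0391) and Cstf2 at -0.60 (edgeR adjusted p = 0.0305), so that the block changed no call of a factor. In all 1026 genes were then higher and 1083 lower, and the lists had 1 lower gene for the histone locus, 1 lower for translation and decay, 1 higher and 3 lower for cleavage and polyadenylation, and 6 lower for DNA replication. Same-numbered libraries had correlations of -0.15, 0.08, -0.06 and 0.01 around their group means, and not every library correlated best with its own number. Whether same-numbered libraries were handled together was not tested.

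With 1 library left out, 858 to 1915 genes were higher and 898 to 2012 lower, 2 to 6 factors were lower, and the log2 fold changes ran from -0.37 to -0.23 for Slbp, -0.40 to -0.25 for Npat, -0.27 to -0.18 for Casp8ap2, -0.26 to 0.014 for Lsm11, -0.29 to -0.18 for Cpsf2 and -0.46 to -0.29 for Eri1. Over all genes, 858 to 1011 were higher and 898 to 1050 lower when 1 of WT replicates 1, 2 and 4 was left out. The histone locus list gave 1 to 3 higher and 1 to 7 lower, translation and decay 1 to 3 lower, cleavage and polyadenylation 1 to 3 higher and 3 to 6 lower, and DNA replication 5 to 19 lower.

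The least abundant factor, Lsm11, had 265 to 738 raw counts, and the others more. The results are limited by the number of libraries, by sex and litter that go with genotype, and by counts that do not show 3′ ends.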

Other observations

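The replacement histones, whose mRNAs are polyadenylated and made outside S phase as well, did not move as one. Of 9 such genes, 4 were called higher in DKO, 1 lower and 4 did not pass, with a median log2 fold change of 0.25. Among all genes tested, 10.7% were called higher and 10.8% lower, and the median was 0.03. H2afy2, a macroH2A gene, rose from 369 ± 109 to 1882 ± 1599 normalized counts (SD, n = 4 each, log2 fold change 2.35, edgeR adjusted p = 0.0116), with 4279 in DKO replicate 1 and 1011 to 1132 in the other DKO libraries. H1fx rose from 44.1 ± 12.8 to 132 ± 64.1 (log2 fold change 1.58, edgeR adjusted p = 0.0270), and H2afj (0.56, edgeR adjusted p = 0.0251) and H3f3b (0.25, edgeR adjusted p = 0.0491) rose by less. H2afy, the other macroH2A gene, fell from 21889 ± 1524 to 14660 ± 3986 (log2 fold change -0.58, edgeR adjusted p = 0.0422). H2afz, the most abundant H2A variant gene of the list, did not pass (log2 fold change 0.07, edgeR adjusted p = 0.725).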
